A study of Caenorhabditis elegans with 2 samples.

Results

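The Ras-ERK pathway of Caenorhabditis elegans was examined as 9 genes, taken by gene name from the Ensembl annotation of the WBcel235 genome: let-23, sem-5, sos-1, let-60, lin-45, ksr-1, ksr-2, mek-2 and mpk-1. All 9 were found among 19973 protein-coding genes, and they lie on 6 chromosomes. For each gene, every region with its summit between 5000 bp upstream of an annotated transcript start and the end of the gene was taken, and this stretch is called the gene's window. The data were chromatin immunoprecipitation sequencing (ChIP-seq) of ETS-4, which belongs to the ETS family of DNA-binding proteins, in 1 group of 2 biological replicates. Both were whole hermaphrodite late embryos of strain OP509, genotype unc-119(tm4063) III; wgIs509, collected 5 hours after synchronization by egg bleaching. OP509 is a single transgenic line in which ETS-4 carries a GFP-FLAG tag at its C-terminus, and an antibody against GFP was used, so that the tagged protein and not the untagged one was followed. The unc-119 allele and the transgene were shared by both replicates, and no untagged strain, other stage or other genotype was analysed here, so each value describes 1 condition. A whole embryo mixes all tissues, and region lists hold no marker levels by which its cells could be checked.

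As background, the pathway carries signals from the epidermal growth factor receptor to the nucleus. The ligand LIN-3 binds the receptor LET-23, the adaptor SEM-5 (the worm Grb2) brings the exchange factor SOS-1 to the membrane, and SOS-1 loads the small GTPase LET-60 (Ras) with GTP. LET-60 then acts through the kinases LIN-45 (Raf), MEK-2 (MEK) and MPK-1 (ERK), with KSR-1 and KSR-2 as scaffolds. In the worm it is known for vulval induction, for the fate of the excretory duct cell in the embryo and for progression of germ cells through meiosis. ETS proteins, which recognise DNA around a GGAA core, are known as nuclear targets of ERK, with LIN-1 as the best known worm example.

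The replicate lists held 15619 regions for replicate 1 and 14622 for replicate 2, and the list called on both replicates together, the pooled list, held 12348. These lists reach down to weak regions. The IDR list (irreproducible discovery rate, a filter on rank agreement between replicates) held 1106 regions, and these were the 1106 pooled regions of highest signal, with a lowest signal of 71.1. Signal is the value the authors deposited for each region, of unstated unit and scaling, and it was used to order regions within a list. In the pooled list its median was 31.2, with quartiles of 26.9 and 41.4, and in the IDR list the median was 104.8. The signals of the 2 replicates added up to nearly the pooled signal, with a median quotient of 0.999 over 1105 IDR regions. How the replicates were scaled to each other is not stated, so a ratio between them is read here against the ratio over all regions. Read numbers were not in the files, and library depth could therefore not be given. No region of the IDR or pooled list lay in the window of ets-4 itself.

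Regions of high signal were found at 2 of the 9 genes, both kinases. The window of lin-45 held an IDR region of signal 132.8 and that of mpk-1 an IDR region of signal 111.1. Of all protein-coding genes, 10.6% had an IDR region in a window built the same way. The count of 2 depended on the lists and windows. Taking the 1106 regions of highest signal in replicate 2 alone gave 4 genes, with sem-5 and let-60 added, and taking those of replicate 1 alone gave the same 2. In promoter windows (1000 bp before to 200 bp after a start) it was 1, lin-45. At sem-5 the highest region had a pooled signal of 70.5 (rank 1121), just under the lowest IDR signal of 71.1. At let-60 it had 64.1 (rank 1322), further below, and the other 5 genes ran from 54.6 at sos-1 down to 24.8 at ksr-1. Every one of the 9 genes had at least 1 pooled region, where 56.9% of all protein-coding genes had one. The windows differ in length, however, with a median of 13133 bp for the 9 genes and of 7027 bp for all protein-coding genes, and a longer window holds more regions.

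The sequences at the 4 highest signals of the 9 windows are shown, those of lin-45 and mpk-1 above the lowest IDR signal and those of sem-5 and let-60 below it. All are from the RefSeq WBcel235 (ce11) genome, on the minus strand, which is the coding strand of each of the 4 genes. Capitals mark GGAA and its reverse TTCC, and GAGAGA and its reverse TCTCTC. For mpk-1 (III:4223722-4223922), sem-5 (X:7962163-7962363) and let-60 (IV:11692434-11692634) the 201 bp around the summit of the pooled region are given. For lin-45 the summit falls in an annotated 5′ untranslated region, so the 167 bp of the same region that lie upstream of that transcript's start (IV:6747884-6748050) are given instead.
lin-45: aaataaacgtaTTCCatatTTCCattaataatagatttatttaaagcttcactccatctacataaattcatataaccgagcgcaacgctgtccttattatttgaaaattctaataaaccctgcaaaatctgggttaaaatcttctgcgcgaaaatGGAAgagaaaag
mpk-1: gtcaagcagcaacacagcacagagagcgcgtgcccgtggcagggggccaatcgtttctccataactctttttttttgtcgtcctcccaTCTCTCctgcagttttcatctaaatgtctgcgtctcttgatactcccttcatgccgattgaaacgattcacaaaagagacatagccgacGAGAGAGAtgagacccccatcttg
sem-5: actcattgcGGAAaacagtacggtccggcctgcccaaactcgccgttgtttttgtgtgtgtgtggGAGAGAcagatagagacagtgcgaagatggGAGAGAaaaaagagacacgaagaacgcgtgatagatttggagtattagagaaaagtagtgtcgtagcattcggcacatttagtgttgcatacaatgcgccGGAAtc
let-60: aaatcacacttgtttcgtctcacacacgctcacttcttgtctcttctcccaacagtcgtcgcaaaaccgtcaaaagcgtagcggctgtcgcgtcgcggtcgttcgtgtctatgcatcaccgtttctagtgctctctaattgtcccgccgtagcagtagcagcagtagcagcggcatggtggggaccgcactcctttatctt
The sem-5 sequence holds GGAA 2 times and the lin-45 stretch 3 times in either direction, while the mpk-1 and let-60 sequences hold none. The lin-45 count is not like the others, since its stretch of 167 bp does not hold the summit. The 201 bp around the lin-45 summit held GGAA 2 times. GAGAGA occurs 3 times in the mpk-1 sequence, overlapping matches counted, and 2 times in that of sem-5. A match of letters describes the sequence and is not a measured binding site.

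**Figure D1:**
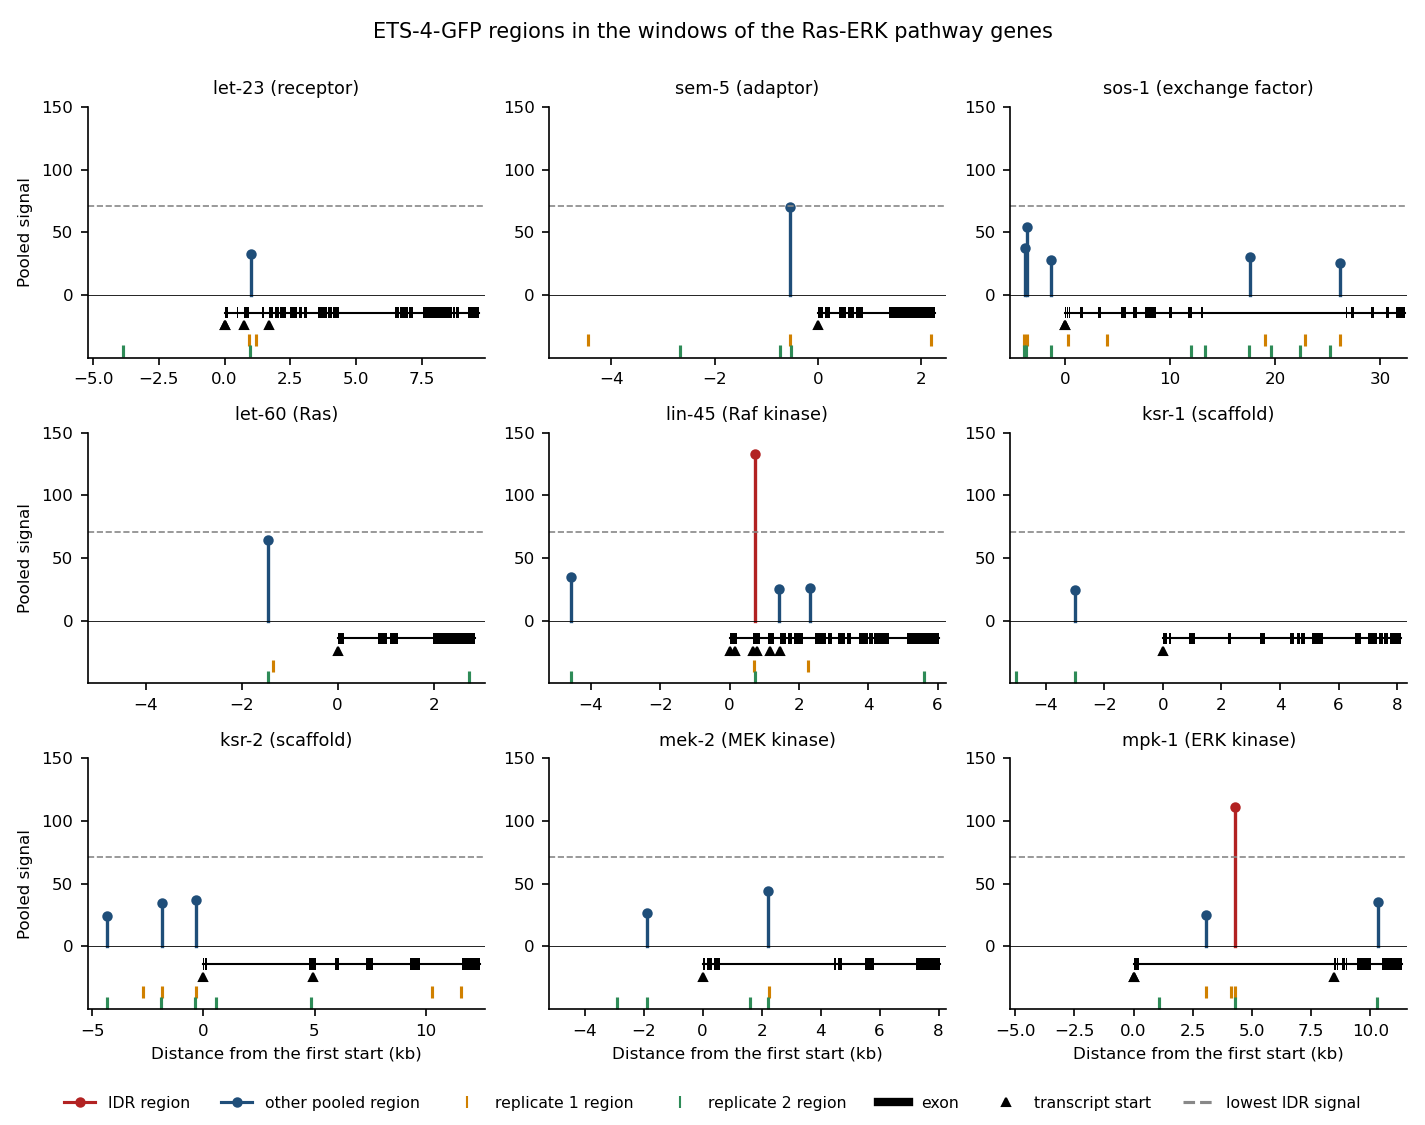
Pooled regions in the windows of the 9 genes, drawn as stems at their summits, with pooled signal on the vertical axis and distance in kilobases from the most upstream transcript start on the horizontal axis (positive into the gene). Red stems are IDR regions, blue stems are other pooled regions, the dashed line is the lowest IDR signal (71.1), and the ticks below each gene model are the summits of the replicate 1 and replicate 2 regions. The red stems stand at lin-45 (132.8) and mpk-1 (111.1), and the stem of sem-5 (70.5) ends at the dashed line.

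At the receptor gene let-23 (WBGene00002299, II:9197512-9207213, plus strand, 4 transcript starts) the signal was low. Its 1 pooled region, II:9198302-9198705 with the summit at 9198504, had a signal of 32.9 and rank 5354 of 12348. The same place had a signal of 16.4 in replicate 1 and of 17.3 in replicate 2, so that it was seen at a like, weak level in both. The summit lay 247 bp downstream of the start of isoform a, in the first intron of that isoform, and 685 bp upstream of the start of isoform b. A further region of replicate 2, with its summit at 9193640 and a signal of 19.2, had no counterpart in replicate 1 and was nearest to the start of the neighbour twk-4, 655 bp away. No IDR summit was closer to a let-23 start than 31495 bp.

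The adaptor gene sem-5 (WBGene00004774, X:7959453-7961723, minus strand, 1 transcript start) had a region close to the limit of the IDR list. This pooled region, X:7962061-7962464, had its summit 540 bp upstream of the sem-5 start, a signal of 70.5 and rank 1121. Its −log10 q of 2.40 lay within the range of the IDR list, which ran from 2.39 to 3.29. In replicate 1 its signal was 22.9, at rank 3222, and in replicate 2 it was 45.6, at rank 774. Replicate 2 thus carried most of the pooled signal, and the ratio of replicate 2 to replicate 1 was 1.99, where pooled regions present in both replicates had a median ratio of 1.01 with quartiles of 0.82 and 1.27. The nearest protein-coding start was that of sem-5, and the start of a piRNA gene, 21ur-13424, lay 201 bp from the summit. The IDR list that the authors made on the older ce10 build, whose lowest signal was 68.2, held a region of the same chromosome, width and signal. Coordinates were not converted, so that it is the same region rests on this match alone.

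At sos-1 (WBGene00004947, V:4516944-4549291, minus strand), the gene of the exchange factor and the longest of the 9, there were 5 pooled regions in a window of 37348 bp. The highest, with its summit at V:4552939, had a signal of 54.6 and rank 1789, with 28.6 in replicate 1 and 25.1 in replicate 2. It lay 3648 bp upstream of sos-1 but 933 bp upstream of the start of Y61A9LA.12, the nearest protein-coding gene. A second summit beside it, at 4553138, had a signal of 37.2. Each replicate also had a second, weaker region there, of signal 13.7 with its summit at 4553220 in replicate 1 and of signal 19.0 at 4553165 in replicate 2. The intervals at this place overlap, so the paired summits are not separate observations. The other 3 had lower signals, and each was seen in a single replicate. A summit 1337 bp upstream of sos-1 (27.7) had only a replicate 2 region, of signal 18.1. In the intron 13 of sos-1, which is 13600 bp long, a summit at 4531706 (30.2) had only a replicate 2 region of signal 19.4, and a summit at 4523089 (25.5) only a replicate 1 region of signal 15.1. No pooled summit lay in a promoter window of sos-1, which here means the 1000 bp before a start and the 200 bp after it.

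let-60 (WBGene00002335, IV:11688227-11691088, minus strand, 1 transcript start), the Ras gene at the centre of the pathway, had 1 pooled region, IV:11692332-11692735. Its signal was 64.1, at rank 1322, and its summit lay 1446 bp upstream of the let-60 start. Replicate 1 had a signal of 22.9 and replicate 2 of 45.5, a ratio of 1.99, so that here too replicate 2 was the higher. The summit cannot be given to let-60 by position alone. It lay in an exon of the noncoding RNA gene ZK792.10, 90 bp from its start, and in the windows of 4 protein-coding genes. The nearest protein-coding start was that of ZK792.12 at 1259 bp. The replicate 2 summit, at 11692533, also lay in ZK792.10 and was nearest to ZK792.12. The replicate 1 summit, at 11692436, lay in no other gene and was nearest to let-60, at 1348 bp. The region was not found in the ce10 IDR list.

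The Raf kinase gene lin-45 (WBGene00003030, IV:6742537-6748572, minus strand) had the highest signal of the 9. Its IDR region, IV:6747647-6748050, had a signal of 132.8, rank 328 and a −log10 q of 3.29, a ceiling shared by 972 of the 1106 IDR regions. The signal was 49.4 in replicate 1, at rank 602, and 81.6 in replicate 2, at rank 253. In both replicates the region was therefore above the signal of rank 1106, which was 36.3 in replicate 1 and 38.0 in replicate 2. The ratio of replicate 2 to replicate 1, 1.65, was above the upper quartile of all IDR regions (1.36), whose median was 1.10. lin-45 has 6 annotated transcript starts, and the summit sat among them. It lay 34 bp downstream of the start of isoform d, in its exon 1, 69 bp upstream of isoform e, 445 bp upstream of isoform a and 739 bp upstream of isoform f. It was also 575 bp downstream of the start of isoform b and 723 bp downstream of that of isoform c, inside the first intron of both. The window of no other protein-coding gene held this summit.

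3 weaker pooled regions were also in the lin-45 window. A summit at 6753130 (34.9), 4181 bp from the start of usp-4, had only a replicate 2 region, of signal 25.5. A summit in an intron at 6746238 (26.0) had only a replicate 1 region, of signal 14.3, and a summit at 6747155 (25.5), 45 bp upstream of isoform f, had a region in neither replicate list. The IDR region was thus the only one of the 4 present in both replicates.

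The scaffold genes had low signals. ksr-1 (WBGene00002239, X:8275169-8283301, plus strand) had the lowest value of the 9, a pooled region of signal 24.8 at rank 11561, 3000 bp upstream of its start and 1148 bp upstream of cutl-29. Replicate 1 had no region in the ksr-1 window and replicate 2 had 13.6 at this place. ksr-2 (WBGene00002240, I:12047342-12059798, minus strand) had a pooled region of signal 37.0 at rank 3966 with its summit 320 bp upstream of its start, with 19.9 in replicate 1 and 15.4 in replicate 2. This was the only one of the 3 pooled regions in the ksr-2 window that was nearest to ksr-2. A summit of signal 34.5 (16.0 in replicate 1 and 19.4 in replicate 2) lay in a coding exon of the neighbour hrpr-1, 36 bp from its start, and one of 24.3, seen in replicate 2 alone, in an intron of hrpr-1.

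mek-2 (WBGene00003186, I:3005403-3013448, minus strand), the MEK kinase gene, holds another gene inside it. Its highest pooled region had a signal of 44.1 at rank 2720, with 24.1 in replicate 1 and 17.9 in replicate 2, a ratio of 0.74. The summit, at I:3011214, lay in intron 3 of mek-2, which is 3838 bp long, and at the same time in a coding exon of the collagen gene col-48 nested there, 530 bp downstream of the col-48 start. The GC content of the 201 bp around it was 61.7%, the highest of the 21 pooled regions in the 9 windows. The other pooled region, of signal 26.9, lay 410 bp upstream of nobh-1 and had only a replicate 2 region, of signal 18.1. Neither mek-2 region was nearest to the mek-2 start.

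At mpk-1 (WBGene00003401, III:4216763-4228108, minus strand), the ERK gene and the last kinase of the pathway, the high region lay inside the gene. This IDR region, III:4223620-4224023, had a signal of 111.1, rank 484 and a −log10 q of 3.29. Replicate 1 had a signal of 69.0, at rank 274, and replicate 2 of 39.6, at rank 1009. Here replicate 1 was the higher, with a ratio of 0.57, below the lower quartile of all IDR regions (0.88), and the order of the replicates was the reverse of that at lin-45. Both replicate signals were again above those of rank 1106. The summit lay in the first intron, of 8247 bp, of transcripts a.1 and b.1, 4286 and 4272 bp downstream of their starts, and 4179 bp upstream of the start of the shorter transcript a.2. No promoter window held it, and no protein-coding gene other than mpk-1 had it in its window. 2 weaker pooled regions lay in introns of mpk-1, one of signal 35.2 seen only in replicate 2 (27.6) and one of 24.9 seen only in replicate 1 (18.5).

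Ordered by highest pooled signal, the genes ran lin-45 (132.8), mpk-1 (111.1), sem-5 (70.5), let-60 (64.1), sos-1 (54.6), mek-2 (44.1), ksr-2 (37.0), let-23 (32.9) and ksr-1 (24.8). The place of sos-1 rests on the summit nearest Y61A9LA.12. In windows reaching 2000 bp upstream its highest signal was 30.2, below those of mek-2, ksr-2 and let-23 in the same windows, and by nearest start it was also 30.2. A pooled value has no replicate error, and the replicate values show how far neighbours in this order can be told apart. lin-45 was above mpk-1 in replicate 2 (81.6 against 39.6) and below it in replicate 1 (49.4 against 69.0), so their order was not the same in both. sem-5 and let-60 had the same replicate signals to within 0.1, at 22.9 and 22.9 in replicate 1 and 45.6 and 45.5 in replicate 2. In replicate 1 both were below sos-1 (28.6) and mek-2 (24.1), and in replicate 2 both were above them. The kinases lin-45 and mpk-1 were above the other genes in replicate 1, and in replicate 2 mpk-1 was below sem-5 and let-60.

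**Figure D2:**
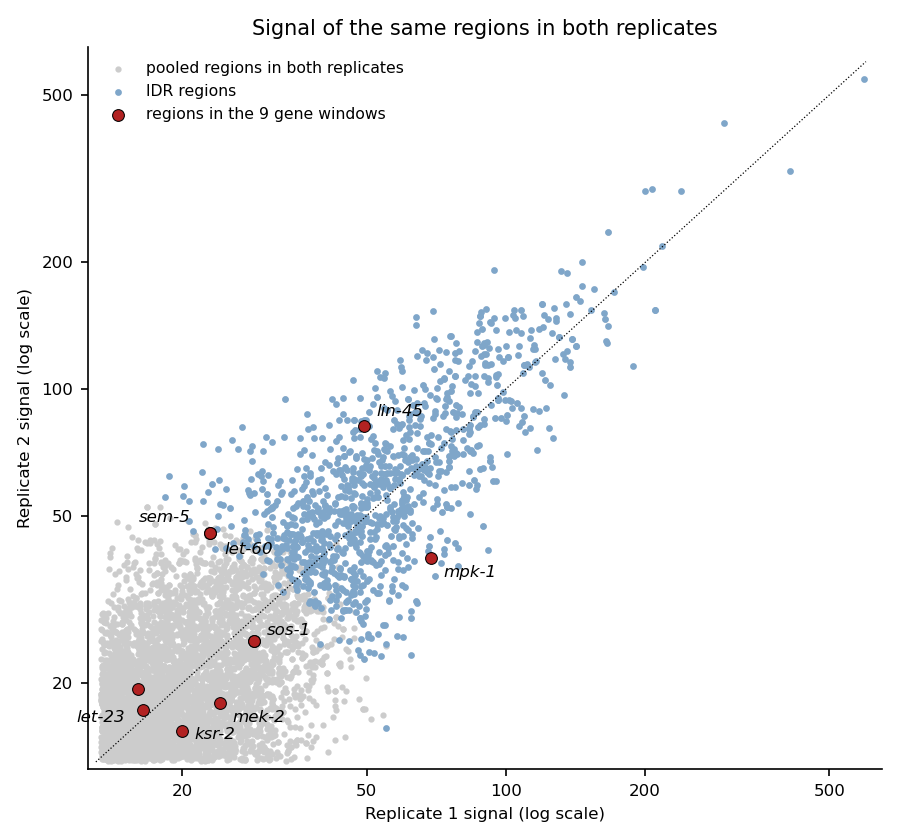
Signal in replicate 1 (horizontal, log scale) and replicate 2 (vertical, log scale) of every pooled region found in both replicates, with IDR regions in blue, the other regions in grey and the 10 regions of the 9 gene windows in red. Names mark the highest region of a gene and the dotted line marks equal signals. The overlapping sos-1 regions have the same replicate values and fall on the same point. lin-45 (49.4 and 81.6), sem-5 and let-60 lie above the line, and mpk-1 (69.0 and 39.6) lies below it.

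Of the 21 pooled regions in the 9 windows, 10 had a region in both replicate lists, or 47.6%, and over all 12348 pooled regions the share was 48.9%. The share in the 9 windows was therefore near that of the whole list. The 10 include both overlapping sos-1 regions upstream of the gene, which were matched to the same replicate regions and are not separate observations. For every gene but ksr-1, the highest region was present in both replicates. Choosing the highest region favours this, since 1105 of the 1106 IDR regions were in both replicate lists. The share for the highest regions of all protein-coding genes is not given here. Of the 21, 9 were in the lower 50% of the pooled list by rank. The replicate lists themselves held 24 and 33 regions in these windows. Of these, 12 of replicate 1 overlapped a region of replicate 2, and 11 of replicate 2 overlapped one of replicate 1. The shares over the full replicate lists are not given here, so these counts cannot be called typical or not.

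Placed among all protein-coding genes by the highest pooled signal in the window, lin-45 was above 96.4% and mpk-1 above 94.9% of genes, counting genes with no pooled region as lowest. sem-5 was above 89.3%, let-60 above 87.9%, sos-1 above 84.6%, mek-2 above 78.8%, ksr-2 above 72.5%, let-23 above 66.1% and ksr-1 above 45.2%. The sos-1 percentage is that of the summit 3648 bp upstream and not of the 30.2 in the narrower window. The median of the highest signal was 54.6 over the 9 genes and 36.2 over the 11368 protein-coding genes with a pooled region. A longer window can hold a higher maximum, and the windows of the 9 genes were longer (median 13133 against 7027 bp). This limits both that contrast and the percentages above. Over single regions the median pooled signal was 34.5 in the 9 windows and 31.2 in the whole pooled list. Per length of window the 9 genes were near all protein-coding genes for IDR regions and somewhat higher for pooled regions. They held 1.45 IDR and 15.2 pooled regions per 100 kb, against 1.10 and 12.3 over the genome. In the windows of all protein-coding genes the values were 1.40 and 12.9. There, overlapping windows were counted for each gene, so 1 region can count more than once. With 2 IDR regions in 138.2 kb, the value of 1.45 rests on a very small number. No test was made, since the genes were listed by name and 1 condition was measured.

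**Figure D3:**
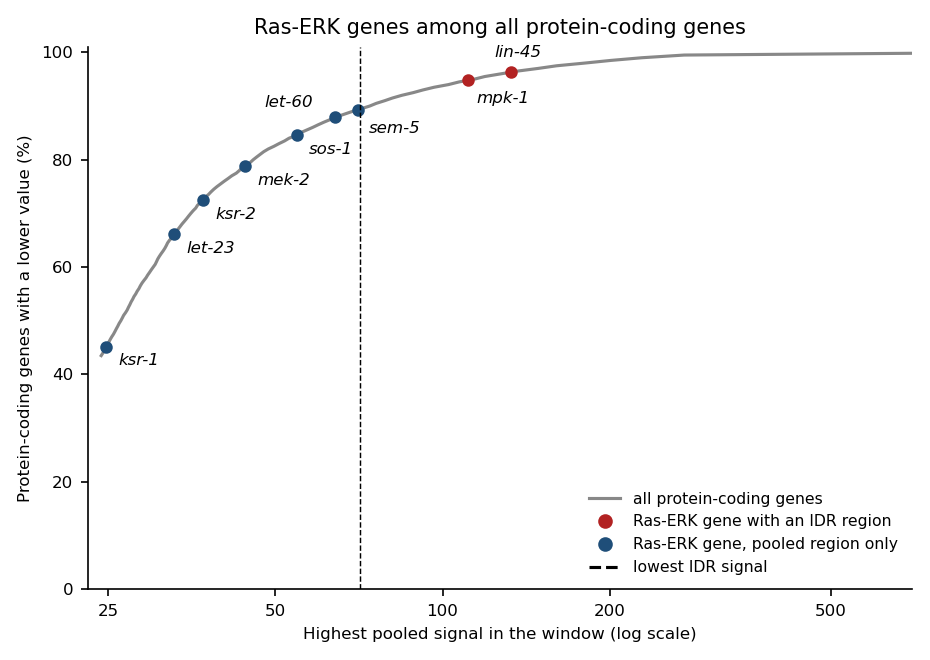
Highest pooled signal in the window (horizontal, log scale) against the percentage of all protein-coding genes with a lower value (vertical), as a grey curve for all genes and as points for the 9 Ras-ERK genes, red where an IDR region was present. The dashed line marks the lowest IDR signal (71.1). lin-45 and mpk-1 lie to its right, and the other genes are spread along the curve down to ksr-1 at 45.2%.

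A region in a window was not always closest to the gene the window was built for. For 5 of the 9 genes (let-23, sem-5, lin-45, ksr-2 and mpk-1) the highest region was nearest to a start of the gene itself. For sos-1, let-60, ksr-1 and mek-2 it was nearer to another protein-coding gene. At let-60 this held for the pooled and replicate 2 summits, while the replicate 1 summit was nearest to let-60. In all, 11 of the 21 pooled regions were nearest to a start of one of the 9 genes. The matching shares over the windows of all protein-coding genes are not given here. The counts of 5 genes and 11 regions therefore cannot be called high or low. In the narrower promoter windows, 4 genes (let-23, sem-5, lin-45 and ksr-2) had a pooled region and lin-45 alone had an IDR region. Of all protein-coding genes, 26.5% had a pooled and 5.36% an IDR region in such a window.

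Motifs were searched in the 201 bp around each summit on both strands. The core of ETS sites, GGAA (reverse TTCC), was present in 16 of the 21 pooled regions (76.2%), compared with 81.6% of all IDR regions and 85.8% of all pooled regions, so that so short a word was common everywhere. The longer CCGGAA (reverse TTCCGG), which contains GGAA, was present in 1, the sem-5 region printed above. Its shares in the full lists were 5.79% of IDR and 7.31% of pooled regions. GAGAGA (reverse TCTCTC) was found in 6 regions (28.6%), against 39.4% of IDR and 23.2% of pooled regions. CCGCCC, read on both strands, was found in 2 regions (9.52%), against 13.3% of IDR and 8.55% of pooled regions. The GATA factor site TGATAA, also read on both strands, was found in 2 regions (9.52%), against 7.32% of IDR and 15.1% of pooled regions. The 201 bp around the lin-45 summit held GGAA 2 times and none of the other 4 words, those around the mpk-1 summit held only GAGAGA, and those around the let-60 summit held none of the 5. GC content averaged 41.0% ± 10.3 (SD over 21 regions) in the 9 windows, 45.0% in IDR regions and 40.4% in pooled regions.

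The other genes of the pathway were taken as a list of 34, chosen by role. Of these, 9 had an IDR region in their window and 29 had a pooled region, where the shares of all protein-coding genes were 10.6% and 56.9%. Their windows were longer too, with a median of 10858.5 bp against 7027 bp and a longest of 48985 bp at gap-2. The median of the highest signal over the 29 was 47.2. By role, IDR regions were present at 1 of 2 genes for the ligand and its release, 1 of 3 for receptor sorting, 1 of 3 in the FGF branch, 3 of 7 adaptors and modifiers, 1 of 8 inhibitors, 2 of 7 nuclear targets and 0 of 4 Ras relatives.

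The highest of them was at rom-1, a rhomboid protease that releases the ligand, with 197.9 (74.3 in replicate 1 and 122.4 in replicate 2). Its summit lay 1651 bp upstream of rom-1 and 72 bp from the start of F26F4.8. cnk-1, a scaffold that promotes Raf activation, had 177.5 (59.2 and 117.4) at a summit 269 bp upstream of its start. egl-17, an FGF ligand, had 146.5 (78.0 and 70.5) at 154 bp downstream of its start, in an intron. Like lin-45, rom-1 and cnk-1 had the higher signal in replicate 2, while the signals of egl-17 were near each other and slightly higher in replicate 1. Over all IDR regions the median ratio of replicate 2 to replicate 1 was 1.10, with quartiles of 0.88 and 1.36.

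In the same list sur-7 had 102.8 at a summit 406 bp upstream of its start, and ptp-2, the SHP2 phosphatase that acts with the adaptors, had 84.2 at 303 bp upstream. Among nuclear targets, the Mediator-linked regulator lin-25 had 95.6 at 98 bp upstream, and the Mediator subunit gene sur-2 had 88.6 at 150 bp upstream. gap-2, a Ras GTPase activating protein and so an inhibitor of LET-60, had 83.7 at 4661 bp upstream, with ZK899.6 the nearest gene. lin-7, which helps sort LET-23 to the basolateral membrane, had 79.1 at 263 bp upstream, where elof-1 was nearer (69 bp). 7 of these 9 genes had the IDR region in a promoter window, and for 6 it was nearest to the gene's own start. Of all protein-coding genes, 10.6% had an IDR region in the wider window and 5.36% in a promoter window. The share by nearest start over all genes is not given here, so the count of 6 cannot be called high or low. The ligand gene lin-3 had a highest signal of 31.0 and the ETS factor gene lin-1 of 35.9, both below the lowest IDR signal.

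**Figure D4:**
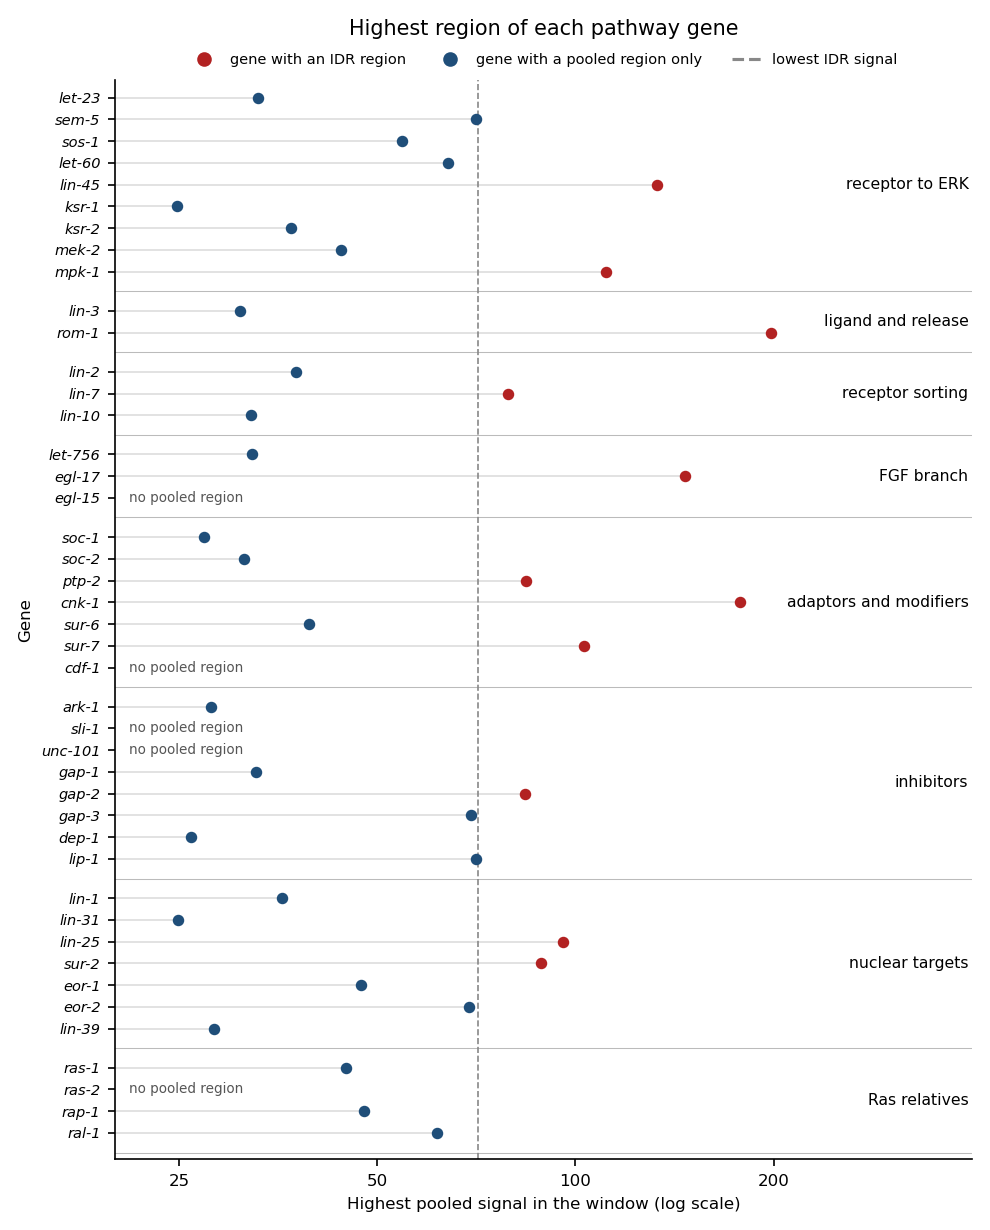
Highest pooled signal in the window (horizontal, log scale) of each of the 9 Ras-ERK genes, from receptor to ERK, and of the 34 other pathway genes by role. Red points are genes with an IDR region, blue points are genes with pooled regions only, and the dashed line is the lowest IDR signal (71.1). Red points appear for lin-45 and mpk-1 and, outside the 9 genes, reach from 79.1 at lin-7 to 197.9 at rom-1.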

How the data were processed

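ChIP-seq of ETS-4-GFP was analysed from region lists of 2 biological replicates of 1 group, numbered as in the labels. Readme texts that the authors deposited state that alignments and a control gave the regions of each replicate and of both pooled, and that IDR was run on these lists. Aligner, peak caller and IDR threshold were not given in the sources used here. The control was not analysed here. The signal of each region and its significance as −log10 q are the values the authors deposited. No counts were given, so depth is unknown and no counting interval can be had.

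The 4 ce11 lists were read with Python 3.11.15, pandas 2.3.3 and numpy 2.4.6, and drawn with matplotlib 3.10.9. All regions lay within the WBcel235 chromosome lengths. Genes came from Ensembl release 115 and sequence from RefSeq WBcel235. Summits were placed in windows from 5000 bp upstream of a start to the gene end, or in promoter windows of 1000 bp before and 200 bp after a start. A replicate region matched a pooled one by an overlap of at least 1 bp, and the one of highest signal was taken. Motifs were searched within 100 bp of the summit. The ce10 IDR list was matched by chromosome, width and signal to within 0.01, with no conversion of coordinates, and other ce10 lists were not used. The window script was tested on simulated regions.

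The 9 genes, the list of 34 pathway genes and the motifs were chosen with earlier results of these data known. All 9 genes are named, with every pooled region of each, the protein-coding genes with the nearest start or a start within 1000 bp of the highest summits, and the genes of the list with an IDR region. lin-3 and lin-1 were named after their values were seen. No test was made, since there is 1 group of 2 samples.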

Additional observations from a re-analysis of the deposited data

How the results depend on the processing

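lin-45 and mpk-1 were the 2 genes with an IDR region in windows reaching 2000 or 10000 bp upstream, by any overlap, by nearest start, and in the upper 50% of the IDR list. In promoter windows 1 gene had an IDR region (1 region), namely lin-45, and 4 genes had a pooled region (5 regions in place of 21). With 10000 bp upstream the IDR regions numbered 4, and by nearest start the pooled regions numbered 11. CCGGAA within 50 bp of a summit was found in 0 regions. Using the regions of highest signal from 1 replicate in place of the IDR list gave 2 to 4 genes and 2 to 4 regions, since sem-5 and let-60 joined when replicate 1 was left out. Using 1 replicate list in place of the pooled list gave 8 to 9 genes and 24 to 33 regions, and the other pathway genes with an IDR region numbered 9 to 9, with lip-1 in place of ptp-2 when replicate 2 was left out. The ce10 IDR list, added after the data were seen, held regions matched by chromosome, width and signal to 3 of the genes, sem-5 included. The highest signal at sos-1 was 30.2 with 2000 bp upstream or by nearest start, and that at ksr-1 was 27.8 by any overlap. The causes were not tested beyond the construction of each setting. No paired analysis was possible because both replicates belong to 1 group.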

Other observations

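Beyond the windows, the nearest IDR summits of the 7 genes without one lay 14928 to 182281 bp from a start. Each is given with the gene of its nearest start. A summit outside the window follows from how these 7 genes were picked. Over the genome there were 1.10 IDR regions per 100 kb. Distances for other genes are not given here, so these cannot be called long or short. For ksr-2 the nearest IDR summit was 14928 bp from a start, at F58D5.5, and for mek-2 it was 17104 bp away, at dnj-28. For let-23 the distance was 31495 bp (gst-13), for ksr-1 43150 bp (K02A6.3) and for let-60 55258 bp (mars-1). The longest distances were those of sem-5, at 163200 bp (adm-4), and sos-1, at 182281 bp (F39G3.3).

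Both genes with an IDR region had another one between 5 and 10 kb upstream. At lin-45 this had a signal of 107.2 and its summit 8071 bp upstream, 668 bp from the start of usp-4. At mpk-1 it had a signal of 85.5 and its summit 9760 bp upstream, 4649 bp from the start of nhr-20. The share of all genes with an IDR region that had such a further region is not given here. Its presence at both lin-45 and mpk-1 therefore cannot be called typical or not. The stretch of chromosome III from 4 to 5 Mb that holds mpk-1 had 32 IDR summits, against a median of 10 over 103 bins of 1 Mb. This was the highest among the bins of the 9 genes. The bin of lin-45 had 13, and those of the other genes ran from 4 at sos-1 to 12 at let-60.

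Among the inhibitors and nuclear targets, 3 genes had a highest region just under the lowest IDR signal of 71.1. These were the ERK phosphatase gene lip-1 at 70.5, the Ras GTPase activating gene gap-3 at 69.4 and eor-2 at 68.8. By chromosome, width and signal alone, each had a match in the ce10 IDR list, and lip-1 had 2. No pooled region was found in the windows of egl-15 (the FGF receptor), cdf-1, sli-1 (a Cbl ubiquitin ligase), unc-101 or ras-2. The share of all protein-coding genes with one was 56.9%. In the replicate lists, cdf-1 and ras-2 had no region either. Each replicate had 1 weak region at egl-15 (14.5 and 15.6) and at unc-101 (13.5 and 13.7). At sli-1 replicate 2 alone had 2, with a highest signal of 22.3. These genes were named after their values were seen.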
